A study of Mus musculus with 6 samples.

Results

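Insulin acts on the liver through its receptor, which phosphorylates the receptor substrates IRS1 and IRS2. These recruit phosphatidylinositol 3-kinase (PI3K), whose lipid product lets PDPK1 activate the kinases AKT1 and AKT2. AKT then phosphorylates the transcription factors FOXO1 and FOXO3 and keeps them out of the nucleus, so that genes which FOXO drives, such as Igfbp1, are turned down after a meal. The 10 genes described here, of 54532 genes listed by Ensembl identifier, follow that order and were chosen by symbol: the substrates Irs1 and Irs2, the PI3K regulatory subunit Pik3r1, the kinases Akt1 and Akt2, the factors Foxo1 and Foxo3, and the insulin-like growth factor (IGF) binding proteins Igfbp1, Igfbp2 and Igfbp4. All 10 passed the filter on low counts.

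Liver RNA of 6 male wild-type C57BL/6J mice was sequenced, 3 on a high-fat diet (HFD) and 3 on the same diet with allantoin (HFD+Allantoin-H), with 1 library per mouse. The study's methods give an age of 8 weeks at assignment, whereas a line of the labels can be read as a start of the diet at 4 weeks of age. Both groups received the diet for 4 weeks and then for a further 4 weeks, during which the drinking water of the HFD+Allantoin-H mice held allantoin, the oxidation product of uric acid. The labels name concentrations of 0.06 and 0.3 mg/mL without assigning them to libraries, and the study's methods call the higher one Allantoin-H. Both groups thus carry the high-fat diet, and no chow group was analysed here.

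The libraries held 11326372 to 14601457 counts. Genes were compared by edgeR's quasi-likelihood test with Benjamini-Hochberg adjustment over 12795 genes, and a gene was called at an adjusted p under 0.05. Levels are given in CPM, read counts scaled to a common library size with TMM factors, and changes as log2 fold changes of HFD+Allantoin-H over HFD with a standard error (SE). TMM factors were 0.756 to 0.951 in HFD and 1.12 to 1.19 in HFD+Allantoin-H libraries, while the mitochondrial chromosome held 17.9% to 36.5% and 6.92% to 11.4% of the counts, and scaling by library size alone raised the median log2 fold change of all tested genes by 0.41. The 10 hepatocyte markers summed to 105840 to 107659 CPM in HFD and 86902 to 117160 CPM in HFD+Allantoin-H libraries. Alb alone was at 54402 to 82145 CPM over the 6 libraries, so the sum says little of the others. Of the 10 markers 2 were called higher and 3 lower, beside 24.3% of all tested genes called in either direction. Adipocyte transcripts marked 1 library: Adipoq had 520 counts in HFD replicate 2 and 0 or 1 in the other 5, and Plin1 had 498 against 0 or 1. Retn, Lep, Fabp4, Cfd, Lipe and Cidec were also highest there, whereas Adrb3 and Car3 were highest in HFD replicates 1 and 3. Car3 was at 2473 to 4140 CPM, and the sum of the 10 adipocyte markers did not set HFD replicate 2 apart (3610 CPM, others 2539 to 4285 CPM). The 8 stellate cell markers summed to 135 to 193 CPM in HFD and 317 to 368 CPM in HFD+Allantoin-H libraries, the 8 macrophage markers to 110 to 262 and 305 to 343 CPM, and the 8 endothelial markers to 80.8 to 157 and 144 to 232 CPM. Of these markers 6 stellate, 3 macrophage and 1 endothelial were called higher and 0 lower, beside 11.3% of all tested genes called higher. The macrophage markers Clec4f, Timd4 and Cd68 were among those not called (log2 fold change 0.29, -0.10 and -0.01). The part of these cell types in the results below was not tested. In bulk tissue a change in cell number and one in RNA per cell cannot be told apart.

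HFD replicate 3 stood apart for several of the genes described here. It held the highest level, at least 2-fold above each of the other 5 libraries, of 145 of the 12795 tested genes, or 1.13%, and of 5 of the 98 tested genes among the members and the pathway lists below, or 5.10%. HFD replicate 1 did so for 273 tested genes, and 1 of the 98. The members and lists were chosen with earlier results of these data known, so these shares are a description and not a test. Results that rest on HFD replicate 3 are given with and without it.

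Sequence just upstream of the genes is shown first, since FOXO factors bind a short DNA element through which insulin represses Igfbp1. The 250 bases before each RefSeq start site (GRCm38.p6) were searched on both strands for CAAAACA, the core of the insulin response element, and for GTAAACA, the FOXO consensus core. The first occurred in 5.56% and the second in 3.17% of 32851 promoter windows. Of the 10 members, all of which had a window, 4 held a match: Igfbp1, Irs1 and Irs2 for CAAAACA and Akt1 for GTAAACA. Windows are printed for Igfbp1, the member with the widest spread between mice, for Akt1, which was called, and for Irs1, which had 2 matches. They are written 5′ to 3′ on the gene's strand with the matches in capitals, TGTTTTG and TGTTTAC being the same motifs read from the opposite strand. The Igfbp1 window is chr11:7197537-7197786 on the plus strand and its last 5 bases fall in an annotated exon, the Akt1 window is chr12:112674885-112675134 on the minus strand, and the Irs1 window is chr1:82291440-82291689 on the minus strand.
Igfbp1: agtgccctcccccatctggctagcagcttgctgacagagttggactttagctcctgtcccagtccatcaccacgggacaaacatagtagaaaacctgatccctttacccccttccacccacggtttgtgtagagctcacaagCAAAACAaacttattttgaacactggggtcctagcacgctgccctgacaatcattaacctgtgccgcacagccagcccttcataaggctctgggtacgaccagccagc
Akt1: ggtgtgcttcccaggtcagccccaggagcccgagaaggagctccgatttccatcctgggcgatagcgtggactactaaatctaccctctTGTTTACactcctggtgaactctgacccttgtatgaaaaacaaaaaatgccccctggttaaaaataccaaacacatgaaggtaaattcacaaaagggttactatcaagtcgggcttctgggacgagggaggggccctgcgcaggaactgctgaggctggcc
Irs1: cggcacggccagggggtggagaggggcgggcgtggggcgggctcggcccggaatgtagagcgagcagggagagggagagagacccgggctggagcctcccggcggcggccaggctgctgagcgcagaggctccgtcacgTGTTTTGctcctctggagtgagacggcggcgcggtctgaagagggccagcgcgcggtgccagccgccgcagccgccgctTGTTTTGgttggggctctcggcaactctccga
The Igfbp1 match began 108 bases before the start site, those of Irs1 began 111 and 32 bases before it, that of Irs2 began 37 bases before it and that of Akt1 161 bases before it. Akt1 has a second start site whose window held no match, and neither did the 4 windows of Akt2. A match describes the letters of a window and not a bound site.

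Both AKT kinase genes rose in HFD+Allantoin-H livers, by 1.75-fold for Akt1 and 1.64-fold for Akt2, and they were the members called. No member was called lower. A call in the higher direction was made for 11.3% of all tested genes and a call in either direction for 24.3%, so that 2 of 10 is not a high share for this comparison. The median log2 fold change was 0.36 over the 10 members and -0.03 over all tested genes, with 6 members above and 4 below 0.

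**Figure D1:**
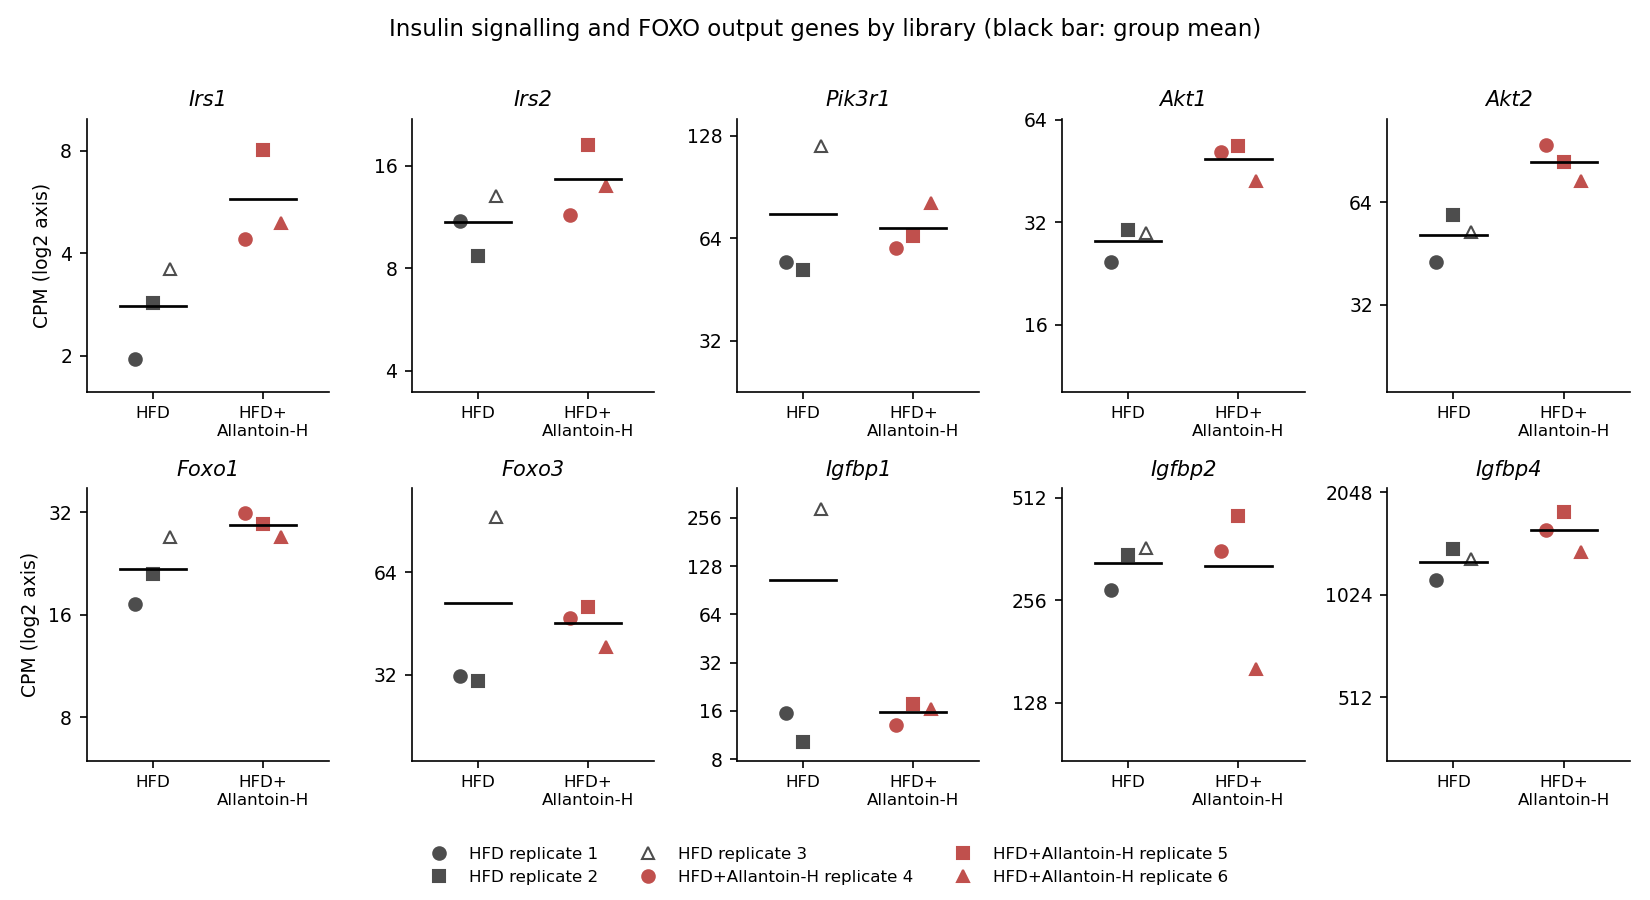
Level of each of the 10 genes in CPM (log2 axis) in the 3 HFD and 3 HFD+Allantoin-H libraries, with the black bar at the group mean. The groups are apart for Irs1, Akt1 and Akt2, and HFD replicate 3 (open triangle) lies above the other 5 libraries for Pik3r1, Foxo3 and Igfbp1.

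The levels of the members, divided by exon length, spanned a wide range. In HFD libraries Igfbp4 was highest at a mean of 289 CPM per kb of exon, followed by Igfbp2 at 178 and Igfbp1 at 68.9, while Pik3r1, Akt2, Akt1 and Foxo3 lay between 7.48 and 6.84, Foxo1 at 2.51, Irs2 at 1.73 and Irs1 at 0.307. Neighbours in this order had overlapping ranges across the 3 HFD libraries except Igfbp4 and Igfbp2, Foxo3 and Foxo1, and Irs2 and Irs1. The HFD mean of Igfbp1 rested on HFD replicate 3, with 10.2, 6.67 and 190 CPM per kb in HFD replicates 1 to 3. In HFD replicate 2 Igfbp1 lay below Akt1 (7.40) and Akt2 (8.23). In HFD+Allantoin-H libraries Akt1 (12.0) and Akt2 (11.8) stood above Igfbp1 (10.4), with overlapping ranges, and all 3 were above Pik3r1 (6.82) and Foxo3 (5.99). The substrates were again lowest in that group, with Irs2 at 2.31 and Irs1 at 0.633 CPM per kb.

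Irs1 and Irs2 encode the docking proteins that carry the signal from the insulin receptor to PI3K. Irs1 (ENSMUSG00000055980, chromosome 1, 82233101 to 82291416, minus strand, GRCm38) was at 1.97, 2.86 and 3.59 CPM in HFD replicates 1 to 3 and at 4.40, 8.05 and 4.93 CPM in HFD+Allantoin-H replicates 4 to 6. All 3 HFD+Allantoin-H values were above all 3 HFD values, a separation of the groups that 44.3% of all tested genes also had in one direction or the other. The log2 fold change of Irs1 was 1.04 (SE 0.36, 95% interval 0.21 to 1.86, adjusted p = 0.0671, edgeR), which missed the threshold. It passed without HFD replicate 3 (log2 fold change 1.26, adjusted p = 0.0436, edgeR). Irs1 rested on few reads, 18 to 136 counts per library, and 2822 bases of its exons lie opposite exons of Gm9747, which had 0 counts in every library.

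Irs2 (ENSMUSG00000038894, chromosome 8, 10984681 to 11008458, minus strand) was at 11.03, 8.69 and 13.0 CPM in HFD and 11.5, 18.4 and 14.0 CPM in HFD+Allantoin-H libraries. The groups overlapped, and the log2 fold change of 0.42 (SE 0.24, 95% interval -0.13 to 0.97) was not called (adjusted p = 0.230, edgeR). Irs2 was more abundant than Irs1 in every library per kb of exon. Its ratio to Irs1 was 8.11, 4.39 and 5.25 in HFD and 3.78, 3.31 and 4.10 in HFD+Allantoin-H libraries, so all 3 ratios of the latter lay below those of the former. A ratio inside a library does not depend on how libraries are scaled. The log2 ratio averaged 2.52 ± 0.46 in HFD against 1.89 ± 0.16 in HFD+Allantoin-H livers (mean ± SD of 3 mice each), a difference of -0.62 that gave p = 0.10 in a two-sided exact permutation test, the smallest that 3 against 3 allows, and 0.60 when adjusted over 6 ratios.

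Pik3r1 encodes p85-alpha, the regulatory subunit that ties the PI3K catalytic subunit to the IRS proteins. Pik3r1 (ENSMUSG00000041417, chromosome 13, 101680563 to 101768217, minus strand) was at 54.7, 51.8 and 120 CPM in HFD and at 60.1, 65.0 and 81.1 CPM in HFD+Allantoin-H libraries. Its log2 fold change was -0.13 (SE 0.31, adjusted p = 0.790, edgeR) over all 6 libraries and 0.37 (SE 0.19, adjusted p = 0.167, edgeR) without HFD replicate 3, so that the sign of the estimate turned with 1 library and neither estimate was called.

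AKT1 and AKT2 are the serine/threonine kinases downstream of PI3K, of which AKT2 is the main isoform for insulin action in liver. Akt1 (ENSMUSG00000001729, chromosome 12, 112653821 to 112674884, minus strand) was at 24.5, 30.3 and 29.8 CPM in HFD and at 51.7, 53.8 and 42.3 CPM in HFD+Allantoin-H libraries. The group means ± SD were 28.2 ± 3.24 and 49.3 ± 6.16 CPM, each over 3 mice, and the lowest HFD+Allantoin-H value was above the highest HFD value. The log2 fold change of Akt1 was 0.80 (SE 0.17, 95% interval 0.42 to 1.19, adjusted p = 0.0118, edgeR). Akt2 (ENSMUSG00000004056, chromosome 7, 27591552 to 27640826, plus strand) was at 42.8, 58.7 and 52.4 CPM in HFD and at 93.8, 84.2 and 74.0 CPM in HFD+Allantoin-H libraries. Its group means ± SD of 51.3 ± 7.99 and 84.0 ± 9.93 CPM, again over 3 mice each, gave a log2 fold change of 0.71 (SE 0.18, 95% interval 0.31 to 1.12, adjusted p = 0.0219, edgeR), again without overlap. A near-identical pseudogene, Akt2-ps, had 4 to 40 counts per library against 392 to 1423 for Akt2.

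The 2 kinase genes moved in step. Their ratio per kb, Akt2 over Akt1, lay between 0.899 and 1.11 in all 6 libraries, and its log2 value averaged 0.06 ± 0.08 in HFD against -0.03 ± 0.11 in HFD+Allantoin-H livers (mean ± SD of 3 mice each; p = 0.50 in a two-sided exact permutation test). Both calls held without any one HFD library and without HFD+Allantoin-H replicate 6. They were lost without HFD+Allantoin-H replicate 4, where the adjusted p was 0.0556 for Akt1 and 0.0957 for Akt2, and without replicate 5, where it was 0.0621 and 0.0826 (edgeR), with log2 fold changes of 0.63 to 0.78. In those reduced comparisons the share of all tested genes called fell to 9.80% and 7.75%.

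**Figure D2:**
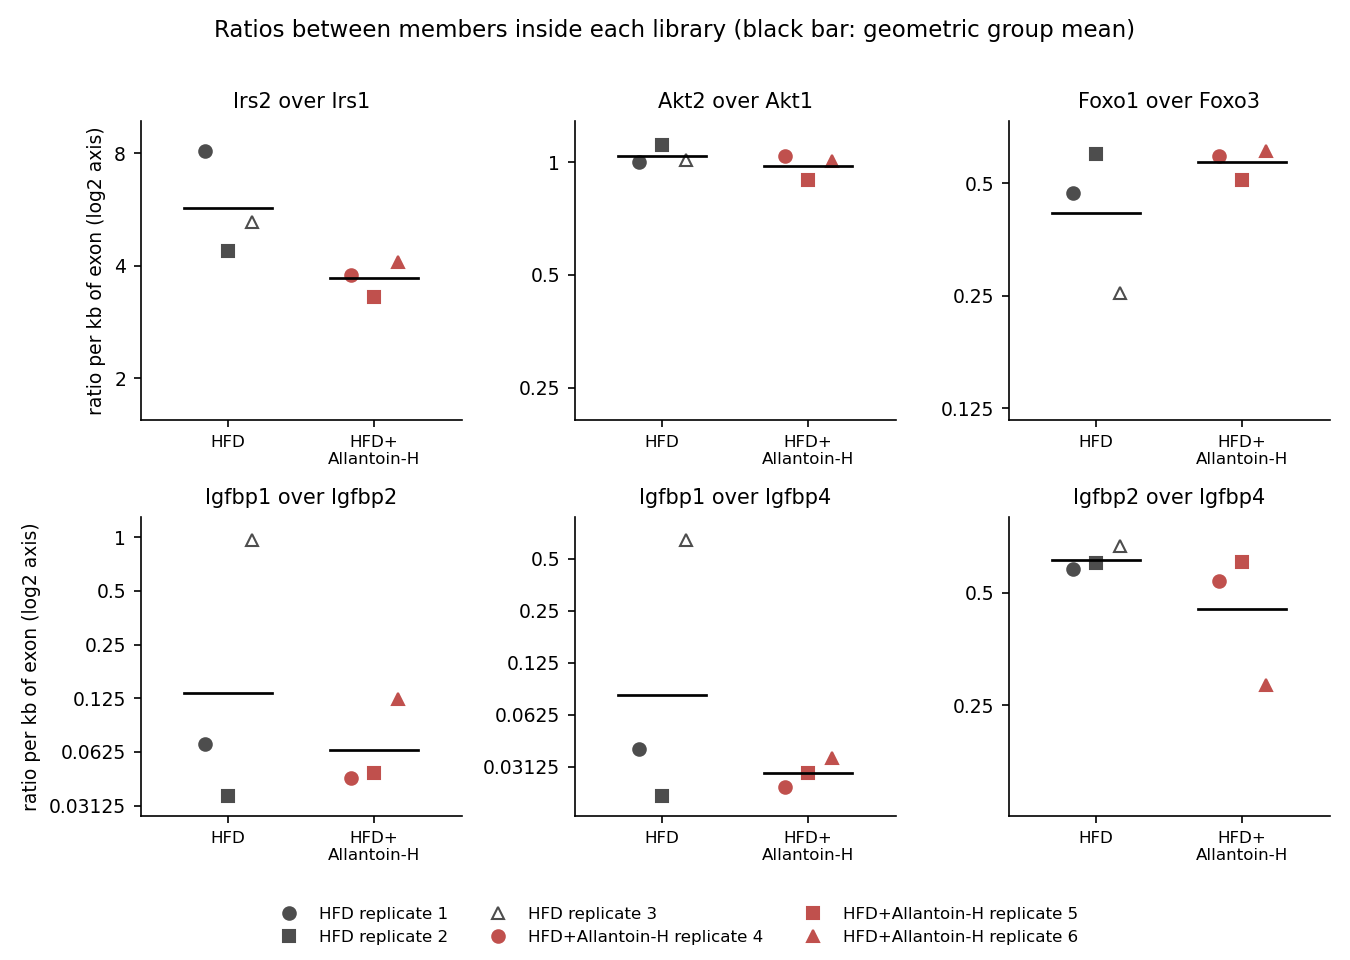
Ratio between members inside each library, as counts per kb of exon on a log2 axis, with the black bar at the geometric mean of the group. Irs2 over Irs1 is lower in all 3 HFD+Allantoin-H libraries, Akt2 over Akt1 stays near 1 throughout, and HFD replicate 3 sets the spread of the Igfbp1 ratios.

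FOXO1 is the FOXO factor through which insulin restrains glucose production in liver, and FOXO3 acts beside it. Foxo1 (ENSMUSG00000044167, chromosome 3, 52268336 to 52353221, plus strand) was at 17.1, 21.04 and 27.0 CPM in HFD and at 31.7, 29.5 and 27.0 CPM in HFD+Allantoin-H libraries. The lowest HFD+Allantoin-H value met the highest HFD value, that of replicate 3. The log2 fold change of Foxo1 was 0.43 (SE 0.20, 95% interval -0.01 to 0.88, adjusted p = 0.135, edgeR), and 0.62 (SE 0.18, adjusted p = 0.0318, edgeR) without HFD replicate 3, where it was called.

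Foxo3 (ENSMUSG00000048756, chromosome 10, 42181841 to 42276755, minus strand) was at 31.8, 30.7 and 93.0 CPM in HFD and at 46.9, 50.6 and 38.6 CPM in HFD+Allantoin-H libraries. HFD replicate 3 was 1.84-fold above the highest of the other 5 libraries, and the other HFD values lay below all HFD+Allantoin-H values. Over all 6 libraries the log2 fold change was -0.19 (SE 0.40, adjusted p = 0.753, edgeR), and without HFD replicate 3 it was 0.54 (SE 0.18, adjusted p = 0.0527, edgeR), positive but just short of the threshold. The ratio of Foxo1 to Foxo3 per kb was 0.471, 0.598 and 0.254 in HFD and 0.591, 0.509 and 0.611 in HFD+Allantoin-H libraries, which overlapped (two-sided exact permutation p = 0.30).

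The IGF binding proteins carry IGFs in plasma, and Igfbp1 is the member of the family whose transcription insulin represses most directly. Igfbp1 (ENSMUSG00000020429, chromosome 11, 7197782 to 7202546, plus strand) was at 15.6, 10.2 and 290 CPM in HFD and at 13.1, 17.8 and 16.5 CPM in HFD+Allantoin-H libraries. The level in HFD replicate 3, from 3464 counts, was 16.3-fold above the next highest library, and the other 5 libraries lay between 10.2 and 17.8 CPM with the groups overlapping. The log2 fold change over all 6 libraries was -2.73 with an SE of 1.07 and a 95% interval from -5.16 to -0.31 (adjusted p = 0.0928, edgeR), which was not called. Without HFD replicate 3 it was 0.30 (SE 0.24, 95% interval -0.25 to 0.85, adjusted p = 0.379, edgeR), so the direction rested on that library. Without HFD replicate 2 it was -3.27 and passed the threshold (adjusted p = 0.0339, edgeR).

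Igfbp2 (ENSMUSG00000039323, chromosome 1, 72824503 to 72852474, plus strand), an abundant liver binding protein that falls with insulin, was at 274, 348 and 364 CPM in HFD and at 357, 451 and 161 CPM in HFD+Allantoin-H libraries. The lowest and the highest value of all 6 libraries both belonged to HFD+Allantoin-H, and the log2 fold change was -0.02 (SE 0.33, 95% interval -0.77 to 0.72, adjusted p = 0.969, edgeR). Without HFD+Allantoin-H replicate 6 it was 0.30 (adjusted p = 0.372, edgeR). Igfbp4 (ENSMUSG00000017493, chromosome 11, 99041244 to 99054392, plus strand), a binding protein that inhibits IGF action, was at 1133, 1390 and 1306 CPM in HFD and at 1587, 1790 and 1363 CPM in HFD+Allantoin-H libraries. These ranges overlapped, and the log2 fold change of 0.31 (SE 0.18, 95% interval -0.11 to 0.72) was not called (adjusted p = 0.247, edgeR). Inside the libraries, Igfbp2 over Igfbp4 per kb was 0.538 to 0.666 in 5 libraries and 0.283 in HFD+Allantoin-H replicate 6 (two-sided exact permutation p = 0.30), while Igfbp1 over Igfbp2 was 0.0354 to 0.124 in 5 libraries and 0.964 in HFD replicate 3 (p = 0.70) and Igfbp1 over Igfbp4 gave p = 0.50 by the same exact test.

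**Figure D3:**
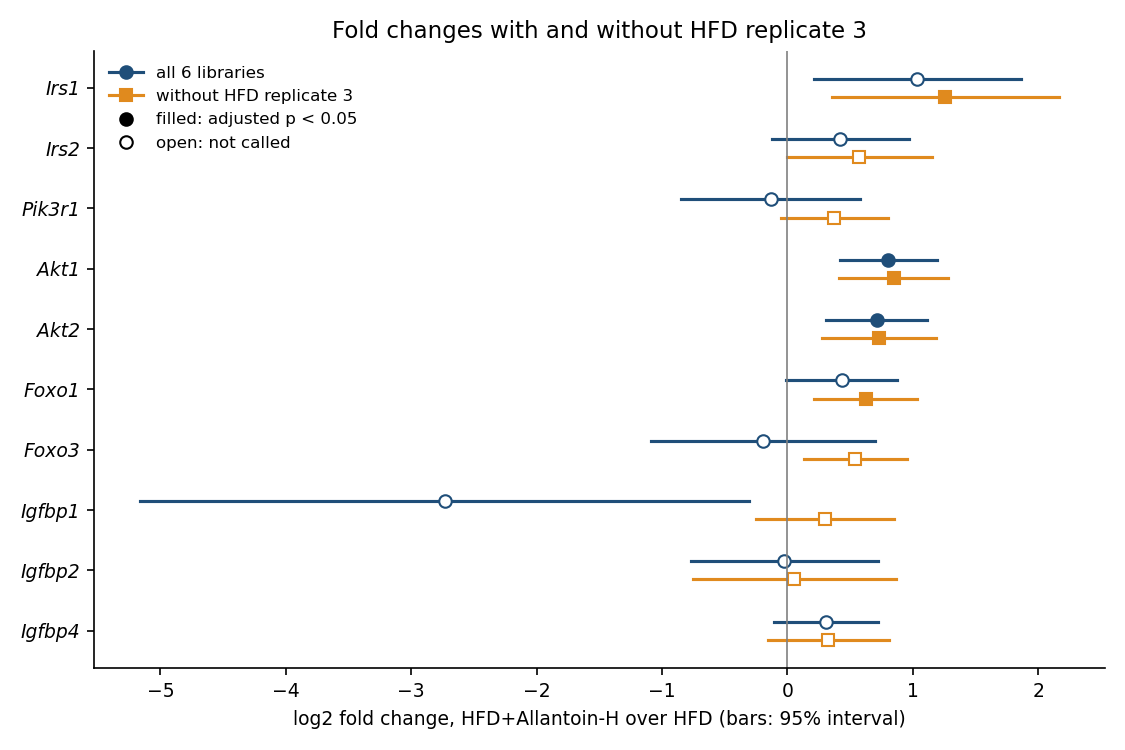
Log2 fold change of each member, HFD+Allantoin-H over HFD, with its 95% interval, over all 6 libraries (circles) and without HFD replicate 3 (squares); filled symbols passed an adjusted p of 0.05 (edgeR). Akt1 and Akt2 are called in both, Irs1 and Foxo1 once HFD replicate 3 is left out, and Igfbp1 moves from -2.73 to 0.30.

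Without HFD replicate 3, 4 of the 10 members were called higher, Akt1, Akt2, Irs1 and Foxo1, and none lower, beside 13.4% of all tested genes called higher and 28.6% called in either direction in that comparison. The log2 fold changes of all 10 members were then above 0, from 0.06 for Igfbp2 to 1.26 for Irs1. HFD replicate 3 lay above the mean of the other HFD libraries for every member, by 1.03-fold for Akt2 to 22.5-fold for Igfbp1. Leaving it out therefore raises every estimate, so these signs and calls follow in part from the library chosen. Without HFD+Allantoin-H replicate 4, or without replicate 5, 0 members were called higher, beside 596 of 13227 and 460 of 13210 tested genes.

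In HFD replicate 3, 5 tested genes of the members and lists were at least 2-fold higher than in each other library. They were Igfbp1, Gadd45a, Trib1, Nr4a1 and Crem, of which the last 4 were named after their values were seen. Socs1, a listed brake on insulin signalling that did not pass the filter, had 172 counts there and 4 to 8 in each other library. Gadd45a, a growth arrest gene that FOXO factors can induce, was at 6.55, 3.75 and 131 CPM in HFD and at 5.72, 10.8 and 9.11 CPM in HFD+Allantoin-H libraries. Trib1, a pseudokinase of the Tribbles family, was at 56.2, 41.0 and 708 CPM in HFD and at 41.3, 51.1 and 74.9 CPM in HFD+Allantoin-H libraries. Neither was called over all 6 libraries (log2 fold change -2.46 and -2.27, adjusted p = 0.131 and 0.108, edgeR) nor without HFD replicate 3 (0.74 and 0.20, adjusted p = 0.152 and 0.600, edgeR). The immediate-early receptor Nr4a1 reached 21.3 CPM in HFD replicate 3 against at most 8.23 in the others, and Crem, a modulator of cAMP-driven transcription, 38.9 against at most 17.4 CPM. The other FOXO-linked genes of HFD replicate 3 were not set apart in this way: G6pc, the final enzyme of glucose production, was at 89.9 CPM there against 61.2 to 108 CPM in the other 5 libraries, and Pck1, its partner in gluconeogenesis, at 1637 against 926 to 2456 CPM.

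**Figure D4:**
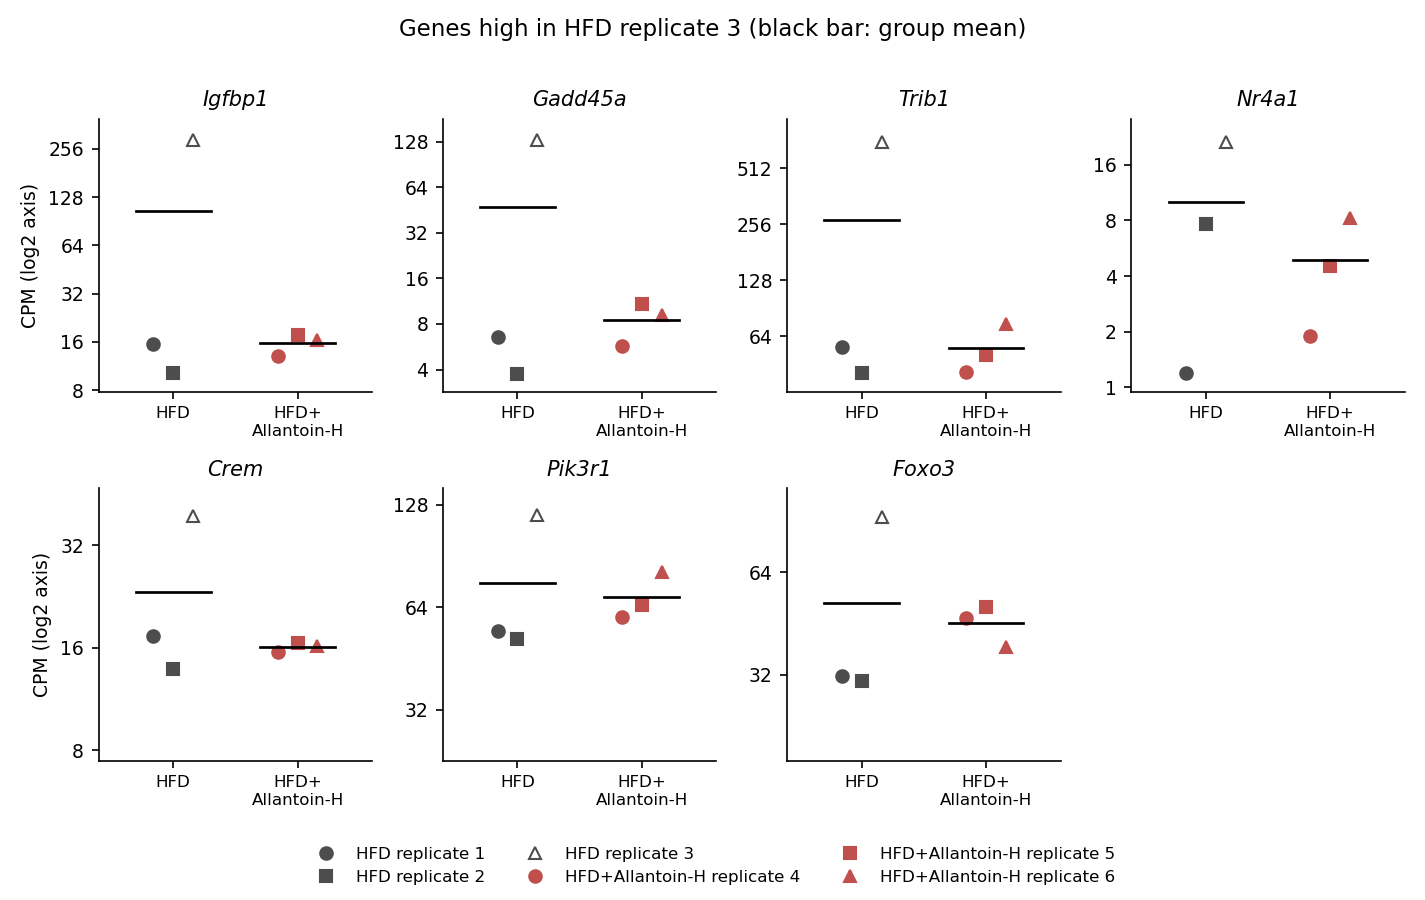
Level in CPM (log2 axis) of 5 tested member or list genes. Each was at least 2-fold higher in HFD replicate 3 (open triangle) than in any other library. Pik3r1 and Foxo3 are shown for comparison, and black bars are group means. For every gene shown except Pik3r1 the HFD mean lies above all libraries but HFD replicate 3.

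By Pearson's r of log2 CPM over the 6 libraries, among 6990 protein-coding genes whose mean level reached 10 CPM, the closest genes to Igfbp1 were Tsc22d2 (0.9995), Crem (0.995) and Hspb1 (0.994), a similarity set by HFD replicate 3. Closest to Irs2 were Rev3l (0.994), Lmbrd2 (0.985) and the Mediator subunit Med1 (0.978), and to Foxo1 9530068E07Rik (0.997), Iba57 (0.992) and the mitochondrial import receptor Tomm20 (0.991). These are descriptions over 6 points, and 112 genes reached an r above 0.95 with Foxo1, 53 with Igfbp1 and 13 with Irs2. Among the members themselves r was 0.98 for Akt1 and Akt2 and 0.91 for Akt1 and Igfbp4, which share the libraries and their scaling, and 0.91 for Pik3r1 and Igfbp1, which were both highest in HFD replicate 3.

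The rest of the pathway was read from lists of genes, each beside the 24.3% of all tested genes called. Of 7 tested receptors and adaptors, 1 was called higher and 1 lower, and the median log2 fold change was 0.07. The insulin receptor Insr averaged 94.9 ± 4.60 CPM in HFD against 102 ± 15.04 CPM in HFD+Allantoin-H livers (mean ± SD of 3 mice each), and its log2 fold change of 0.11 had a 95% interval from -0.26 to 0.48 (adjusted p = 0.670, edgeR). Igf1r, which mature hepatocytes express little of, was at 1.12 to 2.76 CPM in all 6 libraries and was not called (log2 fold change -0.44, adjusted p = 0.494, edgeR). The docking protein Gab1 rose (0.76, adjusted p = 0.0259, edgeR) and the adaptor Sh2b1, which enhances receptor signalling, fell (-0.79, adjusted p = 0.0126, edgeR), both without overlap of the groups. Both calls were lost without HFD+Allantoin-H replicate 4 or replicate 6, and that of Gab1 also without replicate 5 (adjusted p = 0.0554 to 0.123, edgeR). An antisense gene lies across 266 bases of Gab1.

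Of 19 tested genes of the PI3K and AKT cascade, 1 was called, and the median was 0.04. This was Pdpk1, the kinase that phosphorylates the activation loop of AKT, at 15.2, 16.0 and 15.5 CPM in HFD and at 31.7, 30.4 and 28.7 CPM in HFD+Allantoin-H libraries. The HFD+Allantoin-H values were about equal among themselves and well above the HFD values, with a log2 fold change of 0.96 (SE 0.15, adjusted p = 0.00455, edgeR) that was called in all 16 alternative settings, at 0.73 to 1.38. The 18 others, among them the catalytic subunits Pik3ca and Pik3cb and the kinases Mtor, Gsk3a and Gsk3b, were not called. With scaling by library size alone 7 genes of this list were called higher. All tested genes called higher then went from 1446 to 3162 of 12795. In this list 1 gene was called lower without HFD replicate 2, beside 1642 of 13150 tested genes.

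Of 16 tested brakes on insulin signalling, not all of which are reported here, 1 was called lower, and the list had a median of -0.10. Grb14, an adaptor that inhibits the insulin receptor, fell, with means ± SD over 3 mice of 71.3 ± 8.06 CPM in HFD against 40.7 ± 3.74 CPM with allantoin, a log2 fold change of -0.81 (SE 0.16, adjusted p = 0.00958, edgeR). Grb14 lost its call without HFD+Allantoin-H replicate 5 (adjusted p = 0.0617, edgeR), which left 0 genes of the list called lower. Without HFD replicate 3, 2 were called lower, and without HFD replicate 2 it was 4. Of all tested genes, 564 of 13210, 2008 of 13226 and 1642 of 13150 were called lower in those comparisons. Thus Akt1, Akt2 and the AKT activator Pdpk1 were higher in all 3 HFD+Allantoin-H libraries than in any HFD library, while Insr was not called. Such a separation of the groups, in either direction, held for 44.3% of all tested genes and for 3 of the 10 members.

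**Figure D5:**
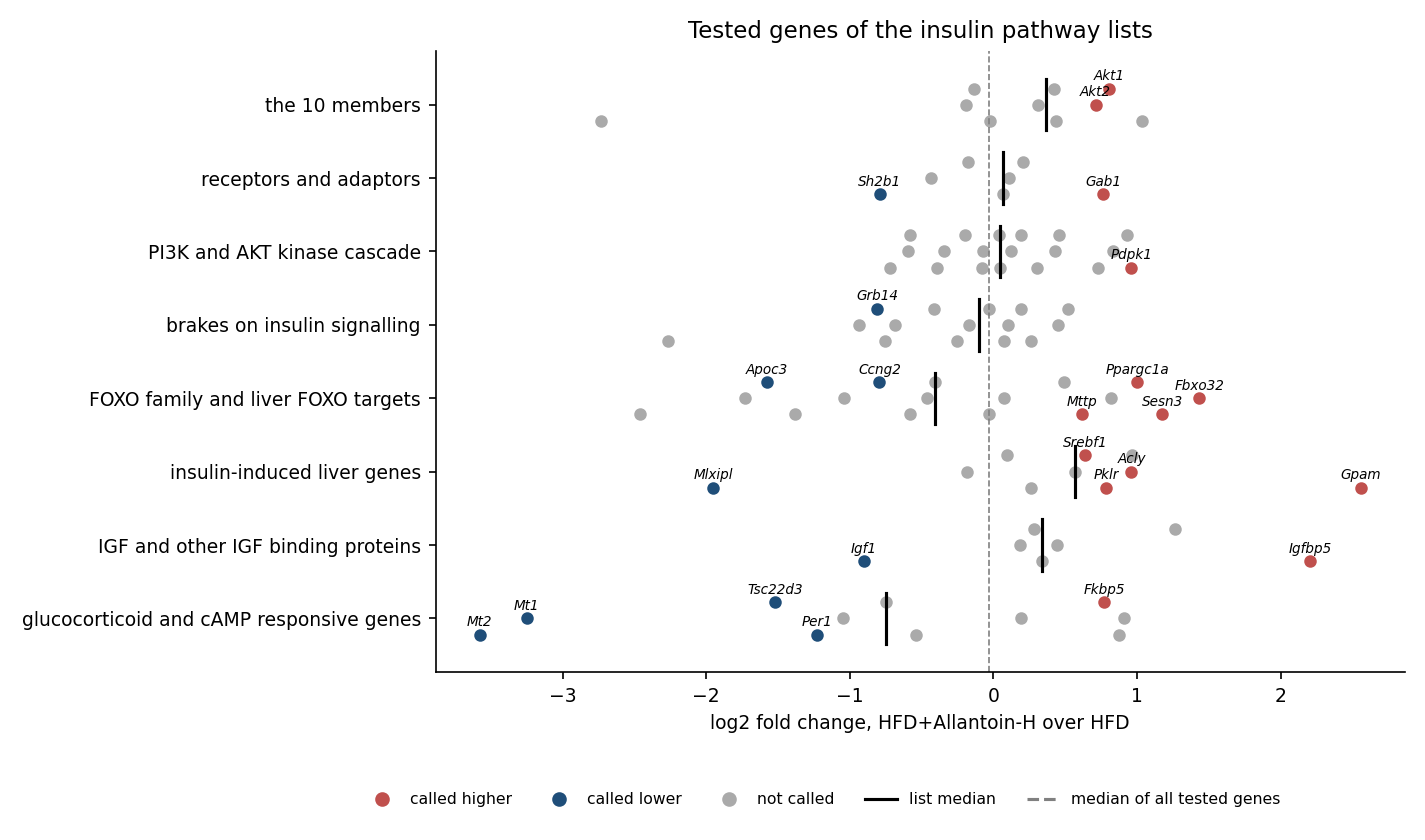
Log2 fold change, HFD+Allantoin-H over HFD, of the members and of the tested genes of 7 pathway lists that are reported here (1 point per gene, red called higher, blue called lower, grey not called at an adjusted p of 0.05, edgeR), with the median of the whole list as a black bar and the median of all tested genes dashed. Called genes lie on both sides of 0 in the receptor, FOXO target, insulin-induced, IGF and glucocorticoid lists, and Pdpk1 is the called gene of the PI3K and AKT list.

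The outputs of FOXO moved in both directions. Of 17 tested family members and liver targets, 4 were called higher and 2 lower, and the median was -0.40. Sesn3, a FOXO-induced sestrin, was at 9.83, 11.2 and 11.3 CPM in HFD and at 20.5, 27.0 and 25.4 CPM in HFD+Allantoin-H libraries (log2 fold change 1.18, SE 0.18, adjusted p = 0.00445, edgeR). Apoc3, an apolipoprotein gene that insulin lowers, fell from a mean of 3092 CPM (SD 260.3) to one of 1038 CPM (SD 104), a log2 fold change of -1.58 (SE 0.18, adjusted p = 0.00242, edgeR), and the cyclin gene Ccng2 had -0.79 (adjusted p = 0.0245, edgeR). Sesn3 and Apoc3 were called in all 16 alternative settings, whereas Ccng2 lost its call without HFD replicate 2 or any one HFD+Allantoin-H library (adjusted p = 0.0533 to 0.105, edgeR). The other 3 genes called higher were Ppargc1a, Fbxo32 and Mttp (adjusted p = 0.0343, 0.0423 and 0.0307, edgeR). Ppargc1a, a coactivator of gluconeogenic genes, was at 4.01 and 8.06 CPM in the mean of HFD and HFD+Allantoin-H libraries. Mttp had a log2 fold change of 0.62. Fbxo32 had 1.43 but rested on few reads, 7 to 15 counts in HFD and 37 to 51 in HFD+Allantoin-H libraries. The gluconeogenic targets G6pc (0.07, 95% interval -0.42 to 0.57, adjusted p = 0.839, edgeR) and Pck1 (-0.58, 95% interval -1.19 to 0.03, adjusted p = 0.144, edgeR) were not called. These counts moved with single libraries. Without HFD replicate 3, 3 genes were called higher and 5 lower, without HFD replicate 1 2 and 2, and without HFD replicate 2 2 and 3. Of all tested genes 28.6%, 19.4% and 22.3% were called in these comparisons. Without any one of HFD+Allantoin-H replicates 4, 5 and 6, 1 was called higher and 1 lower, Sesn3 and Apoc3. All tested genes called were then 9.80%, 7.75% and 11.6%.

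Genes that insulin induces in liver were split as well, with 4 of 11 called higher, 1 called lower and a median of 0.57. Gpam, which starts glycerolipid synthesis, was at 23.6, 16.3 and 6.86 CPM in HFD and at 84.1, 107 and 83.3 CPM in HFD+Allantoin-H libraries (log2 fold change 2.56, SE 0.38, adjusted p = 0.00403, edgeR). Srebf1, the lipogenic factor downstream of insulin, rose from a mean of 49.6 CPM (SD 7.14) to one of 77.2 CPM (SD 5.41), by 0.64 on the log2 scale (adjusted p = 0.0253, edgeR), and Acly, which makes cytosolic acetyl-CoA, had 0.96 (adjusted p = 0.0120, edgeR). Mlxipl, which encodes the glucose-responsive factor ChREBP, fell from a mean of 308 CPM (SD 149.8) to one of 79.5 CPM (SD 10.6), which is -1.95 on the log2 scale (adjusted p = 0.00513, edgeR). Without HFD replicate 3, 5 genes of this list were called higher, and without HFD replicate 1 it was 3. Without HFD replicate 2 or any one HFD+Allantoin-H library it was 2. Over these comparisons 460 of 13210 to 1773 of 13226 tested genes were called higher. Srebf1 lost its call without HFD replicate 2 or without any one HFD+Allantoin-H library (adjusted p = 0.0525 to 0.1004, edgeR), and Acly without HFD+Allantoin-H replicate 5 (0.0614).

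Among 7 tested genes of the IGF system, Igf1 was called lower and Igfbp5 higher. Igf1, the growth hormone-driven ligand made by hepatocytes, fell from 936, 856 and 831 CPM to 491, 473 and 441 CPM, a log2 fold change of -0.90 (SE 0.16, adjusted p = 0.00605, edgeR). Igfbp5 was at 9.39, 7.60 and 8.44 CPM in HFD and at 38.9, 64.8 and 13.6 CPM in HFD+Allantoin-H libraries, which were spread widely but all higher (log2 fold change 2.21, SE 0.47, adjusted p = 0.0120, edgeR). Igfbp3 (0.28, adjusted p = 0.467) and Igfals (0.19, adjusted p = 0.518, edgeR), which form the circulating complex with IGF1, were not called.

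Igfbp1 and Irs2 also respond to glucocorticoids and cAMP, so 11 genes of that kind were read beside them: 1 was called higher and 4 lower, with a median of -0.75. The metallothionein Mt1 was at 455, 105 and 671 CPM in HFD and at 34.5, 22.5 and 72.3 CPM in HFD+Allantoin-H libraries (log2 fold change -3.25, SE 0.66, adjusted p = 0.00996, edgeR), Mt2 had -3.58 (adjusted p = 0.0112) and Per1 -1.23 (adjusted p = 0.0126, edgeR). Calls were lost without HFD+Allantoin-H replicate 5 for Mt1 (adjusted p = 0.0508) and Per1 (0.0619), without replicate 4 for Mt2 (0.0536) and without replicate 6 for Per1 (0.0537, edgeR). Over single libraries left out, 0 to 2 genes of this list were called higher and 1 to 5 lower. The fewest were called higher without HFD+Allantoin-H replicate 4 or 5, and the most without HFD replicate 3. The fewest were called lower without HFD+Allantoin-H replicate 5, and the most without HFD replicate 3. The share of all tested genes called was also lowest without HFD+Allantoin-H replicate 5 (7.75%) and highest without HFD replicate 3 (28.6%). Of the standard glucocorticoid targets Tsc22d3 and Fkbp5, the first fell (log2 fold change -1.52), with overlapping groups, and the second rose (0.77).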

How the data were processed

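RNA-seq libraries from the livers of 6 mice, 3 a group, were analysed. The authors deposited raw read counts per gene from filtered reads, 1 column per library. Their build was GRCm38 (mm10) according to the submitters' notes, and the aligner, counting tool and strand setting are not given in the sources used here. Of 54961 entries, 429 features without an Ensembl identifier (0.197% to 0.306% of counts) were left out, and 54495 identifiers were found in GENCODE M21. With 3 mice a group, precision rests on the spread between mice. The members and lists were chosen with earlier results of these data known.

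Counts were filtered with filterByExpr, scaled by TMM and tested with edgeR 4.0.16 in R 4.3.3 with group as the only term, because the labels name neither pairs nor batches. Exon length was the union of annotated exons. Ratios used two-sided exact permutation tests. The procedure was tested on simulated data with 200 changed genes. Every gene had the same spread there, and no library stood apart. Promoters came from RefSeq (GRCm38.p6). Named genes are the members, up to 3 called genes per pathway list with the smallest p, 11 fixed pathway genes and the 3 closest patterns of Irs2, Foxo1 and Igfbp1, and other genes were named after their values were seen. Some genes of the lists are not reported here, though list sizes and medians include them. Other settings tried were scaling by RLE, by upper quartile or by library size, DESeq2 1.42.0 and limma-voom (limma 3.58.1) as tests, the unfiltered table, a stricter filter of 10 counts per library, each library left out in turn, correction for a trend with length and GC content within libraries, exclusion of the mitochondrial chromosome and, added after seeing the data, robust quasi-likelihood.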

Additional observations from a re-analysis of the deposited data

How the results depend on the processing

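No paired analysis was possible because the replicate numbers of the groups, 1 to 3 and 4 to 6, are not shared. The 2 members called higher became 5 with scaling by library size alone. All tested genes called higher went from 1446 to 3162 of 12795 in that setting. Members called higher were 0 to 4 when single libraries were left out, beside 460 of 13210 to 1773 of 13226 tested genes. With no filter 2134 of 23635 genes were called lower, and 564 of 13210 to 2008 of 13226 when single libraries were left out. The members called lower became 1 with no filter and 0 to 1 when single libraries were left out. That call was Igfbp1, at -3.27 without HFD replicate 2 (adjusted p = 0.0339) and at -2.70 with no filter, where edgeR's prior degrees of freedom were infinite, so that a gene's own spread did not enter its test; DESeq2 gave Igfbp1 no adjusted p. Estimates that changed sign were those of Pik3r1 (0.24 with library-size scaling, and -0.34 to 0.37 over single libraries left out), Foxo3 (0.17, and -0.46 to 0.54), Igfbp1 (-3.27 to 0.30 over single libraries left out), Igfbp2 (0.39 with library-size scaling, 0.015 with no filter, 0.41 with the length and GC trend removed, and -0.34 to 0.30), Insr (-0.080 with the trend removed, and -0.014 to 0.18) and G6pc (-0.12 to 0.26). None of these was called where its sign had changed. Among ratios, Igfbp1 over Igfbp2 had log2 differences from -2.01 to 0.38 over single libraries left out, the highest without HFD replicate 3, and Igfbp2 over Igfbp4 one of 0.0035 with the trend removed. Akt1 and Akt2 kept their direction in all 16 alternatives, at 0.71 to 1.21 and 0.59 to 1.12, and lost their call in 2. Irs1 was called in 4 alternatives (adjusted p = 0.0231 to 0.273 over all 16). With library-size scaling Sh2b1, Grb14, Ccng2, Igf1 and Per1 lost their calls at -0.37, -0.40, -0.40, -0.48 and -0.83. With robust quasi-likelihood, chosen after seeing the data, Mt1 and Mt2 were no longer called (adjusted p = 0.0546 and 0.0665). The cause of these changes was not tested. Irs1, with 18 to 136 counts a library, was the member most limited by depth.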

Other observations

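A few genes of the insulin pathway lists were at least 2-fold higher in 1 library other than HFD replicate 3 than in all the rest. Bcl6, a transcriptional repressor and FOXO target, was at 93.0 CPM in HFD replicate 1 and at 7.48 to 25.3 CPM in the other 5 libraries. Its log2 fold change was -1.73 over all 6 libraries (adjusted p = 0.0703, edgeR) and -2.01 without HFD replicate 3, where it was called (adjusted p = 0.0366). Pdk4, the kinase that switches off pyruvate dehydrogenase in fasting, was at 32.6 CPM in HFD replicate 2, the library with adipocyte transcripts, and at 3.06 to 11.7 CPM in the others. Zbtb16 was at 13.7 CPM in HFD+Allantoin-H replicate 4 and at 1.42 to 5.24 CPM in the others.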
